A study of Mus musculus with 10 samples.

Results

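Endothelial cells feel the friction of flowing lymph or blood and the stretch of the vessel wall, and 7 genes of that response were followed here in 3 populations of mouse endothelium. They were Piezo1 and Piezo2, which encode stretch-activated cation channels; Klf2 and Klf4, which encode Kruppel-like transcription factors induced by laminar shear; Nos3, which encodes endothelial nitric oxide synthase; and Cyr61 and Ctgf, matricellular genes switched on by the coactivators YAP and TAZ. The 7 were chosen by name out of 23284 gene symbols in the count table, with earlier results of these data known. The table holds 5 of them under their own symbol, and Piezo1 and Piezo2 under the older symbols Fam38a and Fam38b, which were matched through the RefSeq synonyms. All 7 passed the filter on low counts and were among the 15320 genes tested.

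RNA had been sequenced from lymph node lymphatic endothelium (LN-LEC, 4 libraries), lymph node blood endothelium (LN-BEC, 3 libraries) and diaphragm lymphatic endothelium (D-LEC, 3 libraries). All animals were untreated wild-type C57BL/6 (B6) mice of 6 to 8 weeks, with no transgene or deleted allele in any group. LN of the inguinal, axillary, brachial, cervical and mesenteric regions were pooled, and each library came from a pool of mice, so that the spread between libraries is a spread between pools. Tissue was digested, CD45+ cells were depleted, and CD31+ cells were sorted as LEC when PDPN was present and as BEC when it was absent. The labels give no batch and no pairing of libraries, and nothing in them says that the libraries of a population were prepared separately, so p-values measure the spread between these libraries.

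In blood vessels, steady shear acts through junctional receptors and mechanosensitive channels on the kinases MEKK3 (Map3k3) and ERK5 (Mapk7) and on MEF2 factors, which raise Klf2 and Klf4. These factors in turn favor Nos3 and other genes of a quiet, anticoagulant endothelium. Stretch and stiff or disturbed surroundings act through YAP and TAZ, which bind DNA with TEAD factors and raise Cyr61 and Ctgf. In lymphatic vessels Piezo1 is needed for valves, and the oscillating flow at valve sites is known to engage several of the same genes. Klf2, Klf4, Cyr61 and Ctgf are also known to be induced within minutes by serum and by the handling of cells, as immediate early genes are.

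The labels were checked first. The 5 LEC markers Prox1, Lyve1, Pdpn, Reln and Flt4 summed to 1185 to 1456 FPKM in LN-LEC, 3928 to 4301 in D-LEC and 23.8 to 87.0 in LN-BEC, and the 6 BEC markers to 1461 to 1513 FPKM in LN-BEC, 23.9 to 42.9 in LN-LEC and 150 to 203 in D-LEC. FPKM here are fragments per kilobase of exon, scaled to the size of the library and computed from the counts, and are used only to compare genes of unequal length. The 8 leukocyte markers summed to 4.69 to 6.19 FPKM in LN-LEC, 9.83 to 16.3 in LN-BEC and 2.64 to 5.65 in D-LEC, and 5 of the 8 were called higher and none lower in LN-BEC than in LN-LEC, in the direction of Piezo1, Piezo2, Klf2, Klf4 and Ctgf below. Their part in those results was not tested. Fibroblast markers summed to 17.7 to 78.6 FPKM over all libraries. Mural markers summed to 56.1 to 92.5 FPKM in LN-LEC, 90.2 to 113 in LN-BEC and 2.63 to 5.14 in D-LEC. Of the 5 mural markers, 3 were called lower and none higher in LN-LEC than LN-BEC, again in the direction of those members. Against D-LEC, 4 were called higher and none lower in LN-LEC. The part of mural cells was not tested. Total counts ran from 22429940 to 48906070 per library, with a median of 33067956.5. LN-LEC replicate 4 and LN-BEC replicate 3 stood apart from the rest of their populations, with 130 to 427 of chi-square per gene against their fellow replicates, where other replicate pairs had 11.2 to 45.6. Both come last in the sample order, after D-LEC and away from the rest of their populations, and the labels give no reason. Results that changed without LN-LEC replicate 4 and LN-BEC replicate 3 are given with and without these libraries.

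Stretches of promoter are shown for Klf2 and Cyr61, which hold recognition letters of the factors just named, and for Klf4 as the relative of Klf2. Promoter stretches from RefSeq (GRCm38.p6) were examined for 4 of the 7 genes: Piezo1, Klf2, Klf4 and Cyr61, the last as Ccn1. Nos3 and Ctgf had no entry there, and the promoter of Piezo2 was left out of the search. Each line gives the 250 bases before the transcription start on the gene's own strand. Capitals mark a match, on either strand, to a loose MEF2 pattern or to GGAATG, letters bound by TEAD. The loose MEF2 pattern was CTA and TAG with any 4 bases between them. The matches did not overlap each other. The regions are chr8:72318812-72319061 on the plus strand for Klf2, chr4:55532476-55532725 on the minus strand for Klf4 and chr3:145649986-145650235 on the minus strand for Cyr61.
Klf2: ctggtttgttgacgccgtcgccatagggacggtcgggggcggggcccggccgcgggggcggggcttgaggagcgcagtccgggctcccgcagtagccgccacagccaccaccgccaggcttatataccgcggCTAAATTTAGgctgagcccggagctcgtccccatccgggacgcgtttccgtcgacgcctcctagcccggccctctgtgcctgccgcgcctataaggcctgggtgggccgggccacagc
Klf4: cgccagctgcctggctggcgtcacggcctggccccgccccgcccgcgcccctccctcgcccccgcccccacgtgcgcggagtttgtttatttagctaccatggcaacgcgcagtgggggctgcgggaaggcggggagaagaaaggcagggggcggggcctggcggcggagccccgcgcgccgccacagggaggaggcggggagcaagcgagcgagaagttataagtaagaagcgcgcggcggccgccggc
Cyr61: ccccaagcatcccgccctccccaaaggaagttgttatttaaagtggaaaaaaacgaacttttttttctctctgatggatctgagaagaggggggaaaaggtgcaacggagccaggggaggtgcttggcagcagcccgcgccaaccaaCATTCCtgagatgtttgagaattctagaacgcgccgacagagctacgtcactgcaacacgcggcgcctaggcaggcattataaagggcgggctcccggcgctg

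The Klf2 stretch held 1 MEF2 match, beginning 118 bases before the start, and the Cyr61 stretch held 1 TEAD match, beginning 103 bases before the start and read on the opposite strand. The loose MEF2 pattern occurred in 3.20% of 32851 RefSeq promoter stretches of the same length and TEAD letters in 12.6%. Klf4 and Piezo1 held neither motif in this window. AP-1 letters (TGANTCA), present in 6.75% of all promoters, were found in none of the 4 genes, and KLF letters (GGGTG), present in 52.0%, were found once in Piezo1 and once in Klf2. The loose CArG pattern, CC and GG with any 6 bases between them, was found in all 4, but also in 67.1% of all promoters. A match is a run of letters and not a measured binding site.

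Levels are given as normalized counts, which are counts divided by the size factor of the library. The genes were compared with an edgeR quasi-likelihood test fitted to all 10 libraries, with p-values adjusted over all genes tested and a gene called when the adjusted p was under 0.05. In LN-LEC against D-LEC, 6 of the 7 genes were called, 5 lower and 1 higher in LN-LEC, where 45.8% of all genes tested were called, 21.7% lower and 24.1% higher in LN-LEC. In LN-LEC against LN-BEC, 6 of 7 were called, again 5 lower and 1 higher in LN-LEC, where 38.2% of all genes were called, 18.4% lower and 19.8% higher in LN-LEC. In D-LEC against LN-BEC, 3 of 7 were called, all higher in D-LEC, where 48.1% of all genes were called, 22.5% higher and 25.6% lower in D-LEC. The median log2 fold change of the 7 genes was -1.79, -1.49 and 0.34 in the 3 comparisons, beside 0.03, -0.01 and -0.05 over all genes tested. The comparisons share libraries, so their counts are not independent of each other. Since these are bulk samples, a lower value can reflect fewer cells expressing a gene or less RNA per cell, and these cannot be told apart.

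The libraries of the populations did not overlap for 6 of 7 genes in LN-LEC against D-LEC (50.0% of all genes tested), for 5 of 7 in LN-LEC against LN-BEC (44.9%) and for 4 of 7 in D-LEC against LN-BEC (56.1%).

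**Figure D1:**
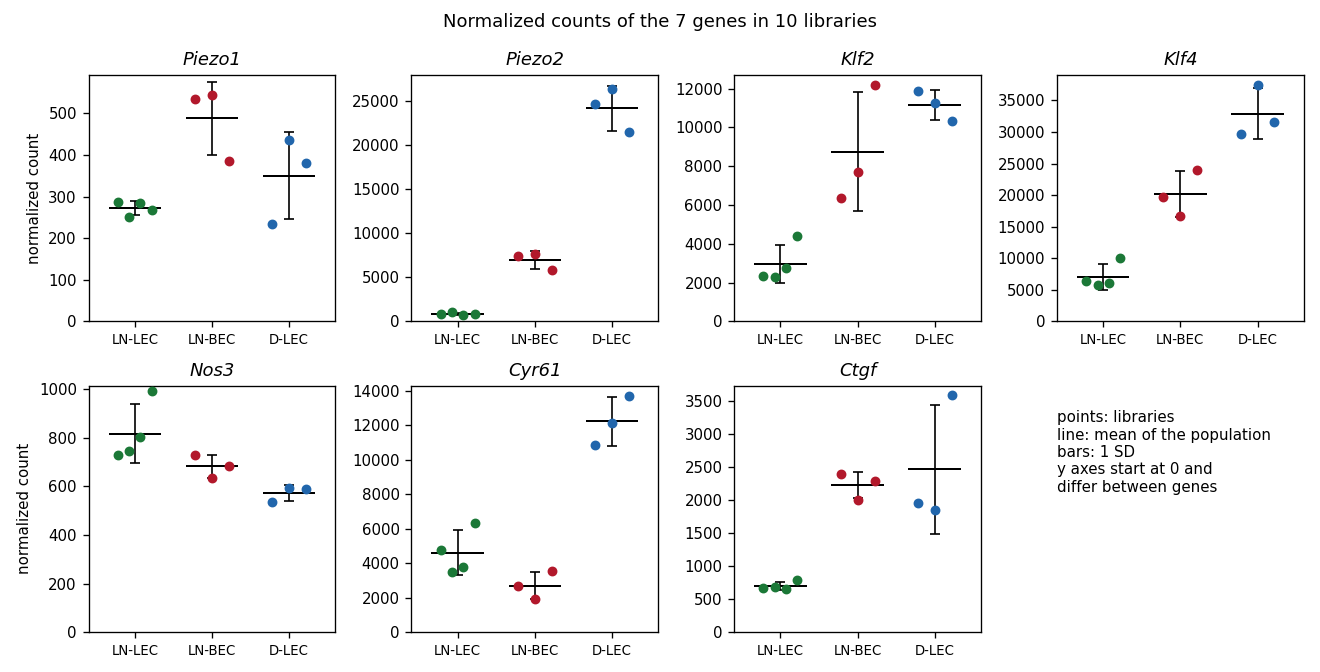
Normalized counts of the 7 genes, 1 panel per gene with its own axis from 0; points are the 10 libraries, the line is the population mean and the bars are 1 SD. Piezo2 differed most between LN-LEC and D-LEC, with LN-LEC from 737 to 1019 and D-LEC from 21466 to 26424, while Nos3 ran the other way, from 727 to 992 in LN-LEC and 536 to 595 in D-LEC.

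Of the channels, Piezo2 had the largest log2 fold change of the 7 genes in both comparisons with LN-LEC. PIEZO2 is best known as the touch and proprioception channel of sensory neurons and Merkel cells. Its normalized counts in LN-LEC replicates 1 to 4 were 881, 1019, 737 and 797. In LN-BEC replicates 1 to 3 they were 7451, 7694 and 5850, and in D-LEC replicates 1 to 3 they were 24678, 26424 and 21466. Every LN-BEC library lay above every LN-LEC library and every D-LEC library above every LN-BEC library. Piezo2 was 27.8-fold lower in LN-LEC than D-LEC (log2 fold change -4.80, SE 0.14, adjusted p = 1.5e-11) and 8.07-fold lower than in LN-BEC (-3.01, SE 0.13, adjusted p = 7.4e-10). It was 3.44-fold higher in D-LEC than in LN-BEC (1.78, SE 0.14, adjusted p = 1.2e-07). None of the alternatives tried moved these 3 calls.

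Markers of other cells of the diaphragm were measured beside Piezo2. The 5 skeletal muscle markers summed to 21.4 to 30.7 FPKM in D-LEC and to at most 0.407 FPKM in the LN libraries, and all 5 were called higher in D-LEC in both comparisons. The 4 mesothelium markers summed to 9.67 to 29.7 FPKM in D-LEC and at most 2.64 elsewhere. The 5 Schwann cell and neural markers summed to 1.45 to 2.28 FPKM in D-LEC, against 1.63 to 3.71 in LN-LEC and 1.96 to 7.29 in LN-BEC, with Snap25 at 0 in all D-LEC and all LN-BEC libraries. Piezo2 itself stood at 67.1 to 83.0 FPKM in D-LEC. The muscle and mesothelium markers were all called higher in D-LEC than in both LN populations. That is the direction of Piezo2, Klf4 and Cyr61 in both comparisons, and of Klf2 and Ctgf against LN-LEC. The part of these cell types in the levels of these genes was not tested.

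Piezo1, the channel that opens under shear and membrane tension in endothelium, had far fewer counts, from 186 to 628 fragments per library. Normalized counts were 288, 250, 284 and 267 for LN-LEC, 534, 543 and 387 for LN-BEC, and 235, 436 and 381 for D-LEC. The LN-BEC libraries all lay above the LN-LEC libraries, while the D-LEC libraries spread across the whole LN-LEC range. Piezo1 was 1.78-fold lower in LN-LEC than LN-BEC (log2 fold change -0.83, SE 0.19, adjusted p = 0.0031). Against D-LEC the log2 fold change of LN-LEC was -0.35 (SE 0.19, adjusted p = 0.15) and passed the threshold without D-LEC replicate 1 (-0.57, adjusted p = 0.0083). Between D-LEC and LN-BEC the log2 fold change was -0.48 (SE 0.20, adjusted p = 0.067), and it passed the threshold without LN-BEC replicate 3 (-0.63, adjusted p = 0.021) and without D-LEC replicate 2 (-0.67, adjusted p = 0.022). In the mm9 annotation Piezo1 lies at chr8:125005598-125075229 on the minus strand with 8216 exon bases, of which 990 (12.05%) are shared with Ctu2, and fragments touching both genes were not counted.

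The ratio of the 2 channels, taken within each library and per exon base, does not depend on the scaling between libraries. The log2 ratio of Piezo1 to Piezo2 was -1.26 ± 0.27 (SD, n = 4) for LN-LEC, -3.46 ± 0.06 (n = 3) for LN-BEC and -5.77 ± 0.49 (n = 3) for D-LEC. Piezo2 thus exceeded Piezo1 in all 10 libraries, by 2.40-fold on the mean log scale in LN-LEC, 11.03-fold in LN-BEC and 54.4-fold in D-LEC. Piezo1 was divided by all its exon bases, including those shared with Ctu2, where fragments were not counted. Its level per base is thus somewhat understated and these folds somewhat overstated. The ranges of the 3 populations did not overlap, and the ratio differed across populations in an exact permutation test over all 4200 assignments of the libraries (two-sided F statistic, p = 0.000476, the smallest the design allows, adjusted p = 0.0014 over 3 ratios).

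**Figure D2:**
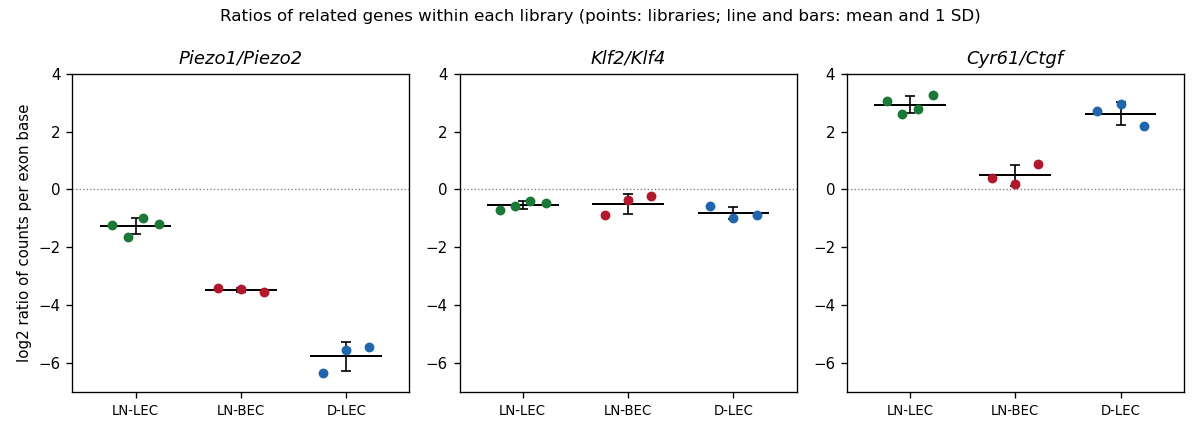
Log2 ratio of counts per exon base between related genes within each library, with points for libraries and the mean and 1 SD per population; the dotted line marks equal levels. Piezo1/Piezo2 fell in 3 separate bands, Klf2/Klf4 lay between -0.99 and -0.23 throughout, and Cyr61/Ctgf was lower in LN-BEC (0.19 to 0.86) than in LN-LEC (2.60 to 3.25) or D-LEC (2.18 to 2.96).

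Among 13 tested channels reported to respond to stretch or flow, the Piezo genes included, 7 were called lower and 3 higher in LN-LEC than D-LEC. Against LN-BEC, 3 were lower and 2 higher in LN-LEC. Of all genes tested, 21.7% were lower and 24.1% higher in LN-LEC than D-LEC, and 18.4% and 19.8% than LN-BEC. The channels called against LN-BEC were thus near the share of all genes. Kcnj2, the inward-rectifier potassium channel Kir2.1, which is sensitive to flow, ran opposite to Piezo2: it was 23.5-fold higher in LN-LEC than D-LEC (log2 fold change 4.56, SE 0.51, adjusted p = 0.00015) and 5.25-fold higher than in LN-BEC (2.39, SE 0.46, adjusted p = 0.0036). Trpc1, a cation channel subunit, followed D-LEC and was 7.30-fold lower in LN-LEC than D-LEC (-2.87, SE 0.29, adjusted p = 2.4e-06). Trpv2 was 4.70-fold higher in LN-LEC than D-LEC (2.23, SE 0.30, adjusted p = 3.4e-05) at low levels, with mean normalized counts of 52.2 and 11.1. It was also lower in D-LEC than in LN-BEC (-2.37, SE 0.31). The junctional and surface sensors were mixed between the LEC populations, with 4 of 14 lower and 3 higher in LN-LEC, but 8 of 14 were lower in LN-LEC than LN-BEC, among them Heg1 (-2.64, SE 0.15, adjusted p = 6.8e-09), which anchors the CCM complex, and Pecam1 (-1.62). In the same comparison 2 of the 14 were higher in LN-LEC, Flt4 (2.82), the receptor for VEGF-C, and Sdc4 (1.86), a syndecan.

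Klf2 was lower in LN-LEC than in either other population. KLF2 keeps endothelium in a quiescent state, and it is the textbook reporter of laminar shear. Its normalized counts were 2331, 2304, 2724 and 4376 for LN-LEC, 6362, 7700 and 12197 for LN-BEC, and 11851, 11261 and 10350 for D-LEC. LN-LEC replicate 4 and LN-BEC replicate 3 were the highest of their populations, yet the LN-LEC libraries stayed below all others. Klf2 was 3.74-fold lower in LN-LEC than D-LEC (log2 fold change -1.90, SE 0.28, adjusted p = 0.00042) and 2.95-fold lower than in LN-BEC (-1.56, SE 0.28, adjusted p = 0.0016). D-LEC and LN-BEC overlapped, with a log2 fold change of 0.34 (SE 0.29, adjusted p = 0.37). Without LN-LEC replicate 4 and LN-BEC replicate 3, that difference was 0.68 and passed the threshold (adjusted p = 0.00031). The gene lies at chr8:74842961-74845553 (mm9, plus strand).

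Klf4, which shares many targets with Klf2 in endothelium, had the highest mean length-scaled level of the 7 genes in each population, at 78.7 FPKM for LN-LEC, 222 for LN-BEC and 361 for D-LEC. Normalized counts were 6427, 5762, 5994 and 10100 for LN-LEC, 19748, 16736 and 23943 for LN-BEC, and 29598, 37434 and 31650 for D-LEC. The 3 populations did not overlap. Klf4 was 4.59-fold lower in LN-LEC than D-LEC (log2 fold change -2.20, SE 0.20, adjusted p = 4.2e-06), 2.82-fold lower in LN-LEC than LN-BEC (-1.49, SE 0.20, adjusted p = 9.8e-05) and 1.63-fold higher in D-LEC than in LN-BEC (0.70, SE 0.21, adjusted p = 0.019). The last call was lost without D-LEC replicate 2 (adjusted p = 0.062) and without LN-BEC replicate 2 (adjusted p = 0.054). The gene lies at chr4:55540009-55545347 (mm9, minus strand).

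The log2 ratio of Klf2 to Klf4 per exon base was -0.54 ± 0.14 (SD, n = 4) for LN-LEC, -0.50 ± 0.35 (n = 3) for LN-BEC and -0.81 ± 0.21 (n = 3) for D-LEC. No difference across populations was detected with the exact permutation test (p = 0.28, adjusted p = 0.28), and the ranges overlapped. Klf4 was above Klf2 per exon base in all 10 libraries.

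**Figure D3:**
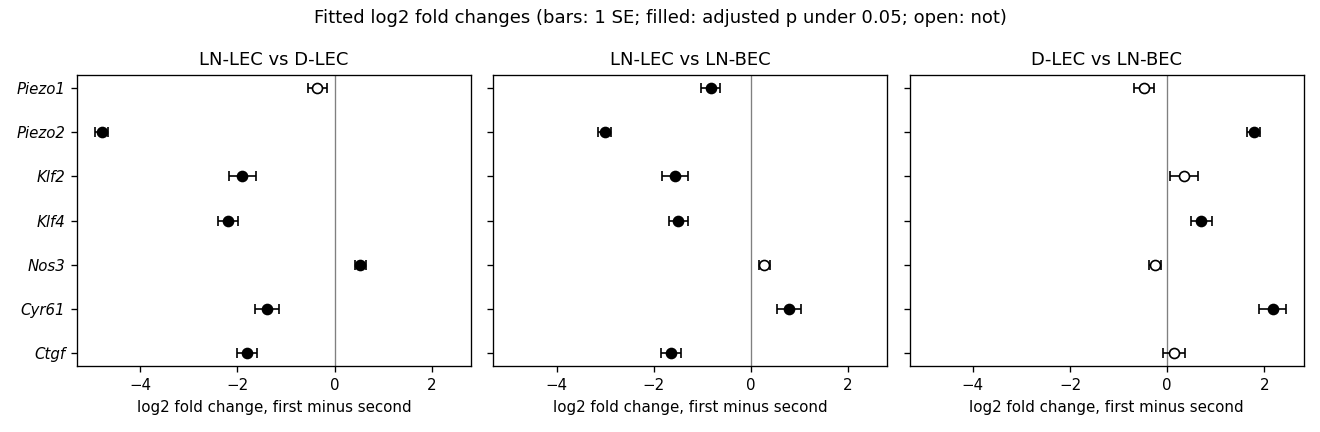
Fitted log2 fold changes of the 7 genes in the 3 comparisons, first population minus second; bars are 1 SE, and filled points have an adjusted p under 0.05. Against D-LEC and against LN-BEC, LN-LEC was lower for Piezo2, Klf2, Klf4 and Ctgf, and the comparison of D-LEC with LN-BEC has 3 filled points, Piezo2, Klf4 and Cyr61.

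Of the genes that lead to Klf2 and Klf4, the MEF2 factor Mef2c differed and the kinases did not pass the test. The kinases were not called in any comparison: Map3k3 had log2 fold changes of 0.02, -0.17 and -0.19, and Mapk7 of -0.17, 0.09 and 0.25, in LN-LEC against D-LEC, LN-LEC against LN-BEC and D-LEC against LN-BEC. Mef2c, a MEF2 factor expressed in endothelium, had mean normalized counts of 7664 for LN-LEC, 33131 for LN-BEC and 23219 for D-LEC. It was 2.99-fold lower in LN-LEC than D-LEC (-1.58, SE 0.12, adjusted p = 1.8e-07) and 4.28-fold lower than in LN-BEC (-2.10, SE 0.12, adjusted p = 1.4e-08). Between the other populations Mef2c was lower in D-LEC than in LN-BEC (-0.52, SE 0.13, adjusted p = 0.0055), opposite to Klf4. Mef2d was lower in LN-LEC (-0.86, SE 0.20, adjusted p = 0.0029) and in D-LEC (-1.07, SE 0.21, adjusted p = 0.00092) than in LN-BEC, and Mef2a was not called (-0.23 and -0.13 in LN-LEC against D-LEC and LN-BEC). Over the 9 genes of the cascade and the CCM complex that restrains it, 2 were called lower and none higher in LN-LEC than D-LEC, and 3 lower and none higher than in LN-BEC. Among all genes tested, 45.8% and 38.2% were called in either direction, shares that these 9 genes did not exceed.

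The whole Kruppel-like family, Klf2 and Klf4 included, was counted from a list of 17 genes, of which 16 were tested. In LN-LEC, 10 were lower and 2 higher than in D-LEC, with a median log2 fold change of -1.17, and 7 were lower and none higher than in LN-BEC, with a median of -0.52. Over all genes tested, 21.7% were lower and 24.1% higher than in D-LEC, and 18.4% and 19.8% than in LN-BEC. Klf6, an injury-induced relative, was 4.23-fold lower in LN-LEC than D-LEC (-2.08, SE 0.13, adjusted p = 2.2e-08). Klf12, a repressor, was 30.5-fold lower (-4.93, SE 0.19, adjusted p = 1.9e-10), though at a low level in LN-LEC, with a mean normalized count of 22.9 against 724 in D-LEC. The 2 higher in LN-LEC, named after their values were seen, were Klf7 (0.62, SE 0.12, adjusted p = 0.00088) and Klf3 (0.26, SE 0.09, adjusted p = 0.033).

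Genes that shear or Klf2 is known to raise in cultured blood endothelium were next. Of 10, 6 were lower and none higher in LN-LEC than D-LEC, and 6 were lower and 3 higher than in LN-BEC. The shares of all genes tested were 21.7% lower and 24.1% higher than in D-LEC, and 18.4% and 19.8% than in LN-BEC. Aqp1, a water channel, was 9.33-fold lower in LN-LEC than D-LEC (log2 fold change -3.22, SE 0.15, adjusted p = 2.6e-09) and 22.6-fold lower than in LN-BEC (-4.50, SE 0.16, adjusted p = 3e-10). Slc9a3r2, a scaffold protein, was 4.81-fold and 4.98-fold lower (-2.27 and -2.32, SE 0.18 each). Thbd, thrombomodulin, differed less, by -0.38 (SE 0.09, adjusted p = 0.0031) and -0.59 (SE 0.09, adjusted p = 0.0001). Nqo1 lay between the others, 3.86-fold lower in LN-LEC than D-LEC and 3.73-fold higher than in LN-BEC (-1.95 and 1.90, SE 0.13 each). Ptgds was lower than in LN-BEC in both LEC populations, by -6.83 (SE 0.23, adjusted p = 1.4e-10) in LN-LEC and -5.73 (SE 0.24, adjusted p = 4e-10) in D-LEC.

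Of 6 genes that shear or Klf2 is known to lower, 2 were higher and 2 lower in LN-LEC than D-LEC, and 3 were higher and 2 lower than in LN-BEC. Among all genes tested, 24.1% were higher and 21.7% lower than in D-LEC, and 19.8% and 18.4% than in LN-BEC. Vcam1, an adhesion molecule for leukocytes, was 142-fold higher in LN-LEC than D-LEC (log2 fold change 7.15, SE 0.24, adjusted p = 5.5e-10), and Edn1, endothelin-1, 8.85-fold higher (3.15, SE 0.29, adjusted p = 1.2e-05). Both were also lower in D-LEC than in LN-BEC, Vcam1 by -4.98 (SE 0.23) and Edn1 by -2.88 (SE 0.29). Ace, the angiotensin-converting enzyme, was lower in LN-LEC than in both, by -2.05 (SE 0.15) against D-LEC and -4.76 (SE 0.15) against LN-BEC.

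**Figure D4:**
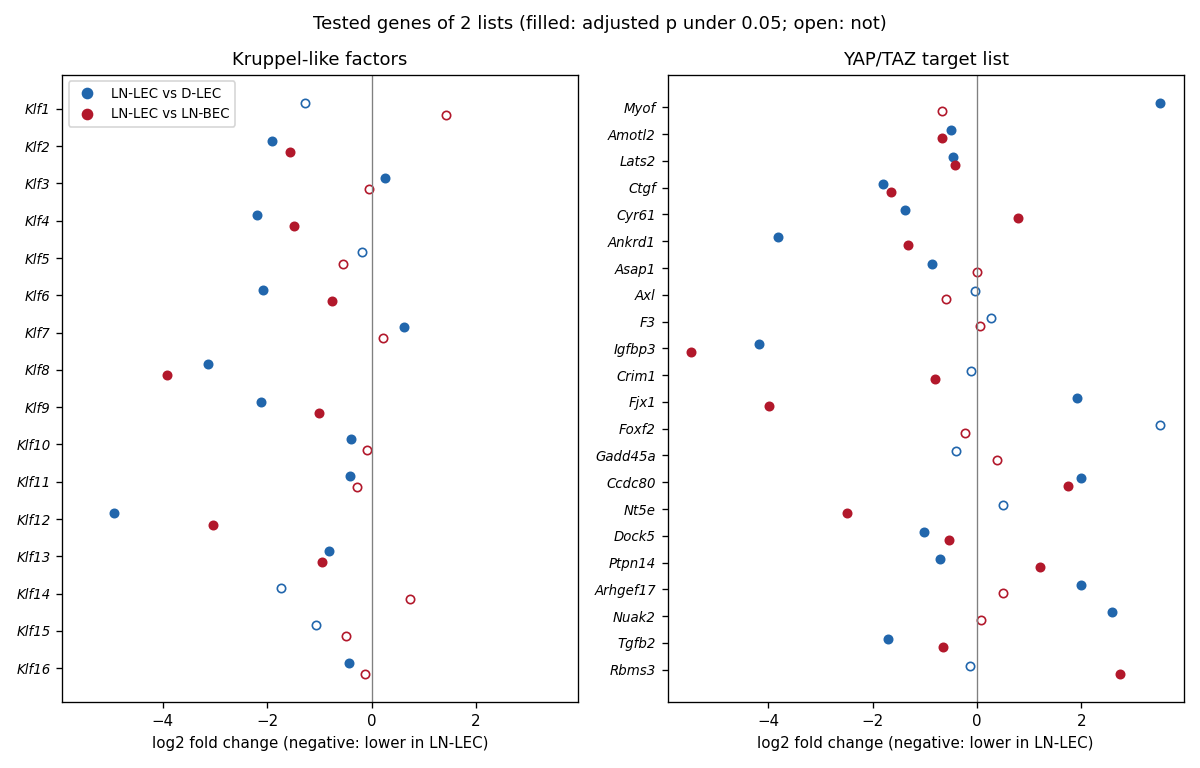
Log2 fold changes of every tested Kruppel-like factor (left) and of a consensus list of YAP/TAZ targets (right) in LN-LEC against D-LEC (blue) and against LN-BEC (red); filled points have an adjusted p under 0.05. Most filled points of the Kruppel-like factors lie left of 0, whereas the YAP/TAZ targets spread to both sides, from Igfbp3 at -5.48 to Myof at 3.51.

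Nos3 was the only one of the 7 genes called higher in LN-LEC than D-LEC. Normalized counts were 727, 744, 802 and 992 for LN-LEC, 730, 635 and 683 for LN-BEC, and 536, 595 and 590 for D-LEC. LN-LEC and LN-BEC overlapped at their edges, while the D-LEC libraries lay below all others. The difference was 1.45-fold between LN-LEC and D-LEC (log2 fold change 0.53, SE 0.12, adjusted p = 0.0022). It did not pass the threshold between LN-LEC and LN-BEC (0.28, SE 0.12, adjusted p = 0.080) or between D-LEC and LN-BEC (-0.25, SE 0.13, adjusted p = 0.11). Nos3 lies at chr5:23870637-23890292 (mm9, plus strand) and shares 294 of its 4123 exon bases (7.13%) with Atg9b, where fragments were not counted. Per exon base, Nos3 stood at 6.71 FPKM for LN-LEC, 5.55 for LN-BEC and 4.65 for D-LEC, so that Klf4 exceeded it in each population.

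The partners of Nos3 did not follow 1 direction. Cav1, caveolin-1, which binds and restrains the enzyme, had mean normalized counts of 15687 for LN-LEC, 52770 for LN-BEC and 44182 for D-LEC and was lower in LN-LEC than D-LEC (-1.47, SE 0.13, adjusted p = 6.1e-07) and in LN-BEC (-1.73, SE 0.13, adjusted p = 1.4e-07). Nos2, the inducible synthase, was 33.9-fold higher in LN-LEC than D-LEC (5.08, SE 0.17, adjusted p = 5.3e-11), and per exon base stood at 10.9 FPKM in LN-LEC, above the 6.71 of Nos3. D-LEC was also below LN-BEC for Nos2 (-4.65, SE 0.17), so both LN populations were above D-LEC. Gucy1a3 and Gucy1b3, the subunits of the soluble guanylate cyclase that nitric oxide activates, were 4.62-fold and 22.4-fold lower in LN-LEC than D-LEC (-2.21, SE 0.27, and -4.48, SE 0.18). D-LEC was also above LN-BEC for both subunits (2.83, SE 0.30, and 5.04, SE 0.21). Of 15 tested genes of nitric oxide production and signaling, Nos3 included, 3 were higher and 5 lower in LN-LEC than D-LEC, and the same numbers, 3 and 5, were found against LN-BEC. Over all genes tested, 24.1% were higher and 21.7% lower in LN-LEC than D-LEC, and 19.8% and 18.4% against LN-BEC. Nos1 was at 0 in all 10 libraries.

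Cyr61 and Ctgf, both CCN proteins of the matrix that bind integrins, gave unlike patterns. For Cyr61, normalized counts were 4784, 3482, 3792 and 6360 for LN-LEC, 2664, 1924 and 3526 for LN-BEC, and 10846, 12114 and 13716 for D-LEC. D-LEC stood above all other libraries, and LN-BEC replicate 3 overlapped the lowest LN-LEC library. Cyr61 was 2.62-fold lower in LN-LEC than D-LEC (log2 fold change -1.39, SE 0.24, adjusted p = 0.0011) and 4.51-fold higher in D-LEC than in LN-BEC (2.17, SE 0.27, adjusted p = 0.00011). It was 1.72-fold higher in LN-LEC than LN-BEC (0.79, SE 0.25, adjusted p = 0.033), a call lost when only these populations were fitted (adjusted p = 0.073) and without any 1 of 5 libraries: D-LEC replicate 1, LN-BEC replicate 1, LN-BEC replicate 2, LN-LEC replicate 1 or LN-LEC replicate 4 (adjusted p from 0.051 to 0.084). The gene lies at chr3:145309935-145312949 (mm9, minus strand).

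Ctgf normalized counts were 675, 682, 659 and 790 for LN-LEC, 2395, 2005 and 2296 for LN-BEC, and 1964, 1848 and 3593 for D-LEC. All LN-LEC libraries lay below all others, and D-LEC replicate 3 lay far above its 2 fellows. Ctgf was 3.47-fold lower in LN-LEC than D-LEC (log2 fold change -1.79, SE 0.21, adjusted p = 3.6e-05) and 3.14-fold lower than in LN-BEC (-1.65, SE 0.21, adjusted p = 7.6e-05). D-LEC and LN-BEC differed by 0.14 (SE 0.22, adjusted p = 0.62), and the sign turned without D-LEC replicate 3 (-0.24, adjusted p = 0.11). The gene lies at chr10:24315248-24318488 (mm9, plus strand).

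The log2 ratio of Cyr61 to Ctgf per exon base was 2.92 ± 0.29 (SD, n = 4) for LN-LEC, 0.48 ± 0.35 (n = 3) for LN-BEC and 2.61 ± 0.40 (n = 3) for D-LEC. On the mean log scale Cyr61 exceeded Ctgf by 7.57-fold in LN-LEC and 6.12-fold in D-LEC, and by 1.397-fold in LN-BEC. The ratio differed across populations (exact permutation test, p = 0.0057, adjusted p = 0.0086), with LN-BEC below all lymphatic libraries and the LEC populations overlapping.

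Within the CCN family, Cyr61 and Ctgf included, 4 of 6 genes were called lower in LN-LEC than D-LEC and none higher. Against LN-BEC, 3 were lower and 1, Cyr61, was higher in LN-LEC. Among all genes tested, 21.7% were lower and 24.1% higher than in D-LEC, and 18.4% and 19.8% than in LN-BEC. Nov, also called Ccn3, was 29.9-fold lower in LN-LEC than D-LEC (log2 fold change -4.90, SE 0.14, adjusted p = 1.5e-11) and 13.3-fold lower than in LN-BEC (-3.73, SE 0.13, adjusted p = 1.4e-10). Wisp1 was 8.60-fold lower than in D-LEC (-3.10, SE 0.35, adjusted p = 7.8e-05). Wisp2 and Wisp3 were sparse, with mean normalized counts of at most 40.1, and were not called.

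The coactivators themselves did not follow 1 direction. Wwtr1, which encodes TAZ, had mean normalized counts of 12448 for LN-LEC, 16886 for LN-BEC and 24236 for D-LEC, and was lower in LN-LEC than D-LEC (-0.94, SE 0.08, adjusted p = 7e-07) and in LN-BEC (-0.42, SE 0.08, adjusted p = 0.0011). Yap1 was not called between LN-LEC and D-LEC (0.17, SE 0.13, adjusted p = 0.29) and was higher in LN-LEC than LN-BEC (0.50, SE 0.13, adjusted p = 0.0071). Of 22 consensus YAP/TAZ targets, which include Cyr61 and Ctgf, 10 were lower and 5 higher in LN-LEC than D-LEC (median -0.27), and 10 were lower and 4 higher than in LN-BEC (median -0.47). Igfbp3, which encodes a binding protein for insulin-like growth factors, was 18.2-fold lower in LN-LEC than D-LEC (-4.18, SE 0.22, adjusted p = 5.7e-08). Myof, a membrane-repair protein, was 11.4-fold higher in LN-LEC than D-LEC (3.51, SE 0.37, adjusted p = 3.7e-05), and Rbms3 was 6.72-fold higher in LN-LEC than LN-BEC (2.75, SE 0.18, adjusted p = 1.3e-07). Each was shared with another population: in D-LEC against LN-BEC, Myof stood at -4.19 (SE 0.38) and Rbms3 at 2.88 (SE 0.19). Of 18 Hippo kinases, adaptors, coactivators and TEAD factors, 8 were lower and 2 higher in LN-LEC than D-LEC, and 6 were lower and 5 higher than in LN-BEC. Beside both lists, 21.7% of all genes were lower and 24.1% higher in LN-LEC than D-LEC, and 18.4% and 19.8% than LN-BEC.

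Genes of lymphatic valves, several of which oscillating flow raises in cultured LEC, were counted last. Of 10, 4 were higher and 2 lower in LN-LEC than D-LEC, with a median log2 fold change of 0.11, and 7 were higher and 2 lower in LN-LEC against LN-BEC, with a median of 1.52. The shares of all genes tested were 24.1% higher and 21.7% lower against D-LEC, and 19.8% and 18.4% against LN-BEC. The list includes Prox1, a LEC marker. Between the LEC populations, Gja1, connexin 43 (-1.99), and Nfatc1 (-0.64) were the lower. The higher included Vangl2 (1.52), at mean normalized counts of 40.5 in LN-LEC and 14.1 in D-LEC. Fn1 (0.83) and Itga9, the valve integrin (0.52), were also among the higher.

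Immediate early genes, which rise during tissue digestion and sorting, were compared beside the 7 genes. The 18 listed genes summed to 3691 to 4057 FPKM in D-LEC. In LN-BEC replicates 1 to 3 the sum was 1627, 1426 and 2627 FPKM, and in LN-LEC replicates 1 to 4 it was 649, 514, 549 and 1345 FPKM. The populations thus had the same order as for Klf4, and the highest library of each LN population was the 1 that stood apart. Of the 18 genes, 15 were lower and 1 higher in LN-LEC than D-LEC, 9 lower and 1 higher in LN-LEC than LN-BEC, and 9 higher and 1 lower in D-LEC than in LN-BEC. In the same order, the shares of all genes tested were 21.7% and 24.1%, 18.4% and 19.8%, and 22.5% and 25.6%. Egr3 alone was at 0 in all libraries of a population, D-LEC. The part of this difference in the values of Klf2, Klf4, Cyr61 and Ctgf was not tested.

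The levels of the 7 genes in the libraries that stood apart are set beside that sum. Each is a single library that differed from its fellows across the tested genes, so a link to the sum was not tested. In LN-LEC replicate 4 the immediate early sum was 2.36-fold the mean of the other 3 replicates. Klf2 was 1.78-fold, Klf4 1.67-fold, Cyr61 1.58-fold, Nos3 1.31-fold and Ctgf 1.18-fold their means, each above the whole range of the other replicates. Piezo1, at 0.975-fold, and Piezo2, at 0.906-fold, lay within it. In LN-BEC replicate 3 the sum was 1.72-fold the mean of the other 2. There Klf2 was 1.73-fold, Cyr61 1.54-fold and Klf4 1.31-fold, above both other replicates. Ctgf, at 1.04-fold, and Nos3, at 683 normalized counts, lay between them, and Piezo1, at 0.718-fold, and Piezo2, at 0.773-fold, lay below both.

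**Figure D5:**
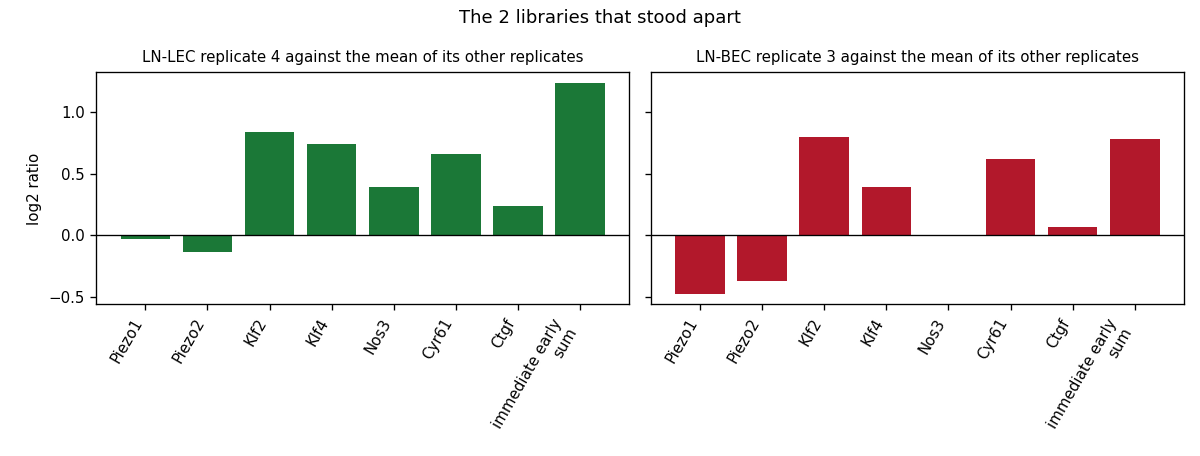
Log2 ratio of LN-LEC replicate 4 (left) and LN-BEC replicate 3 (right) to the mean of the other replicates of their population, for the normalized counts of the 7 genes and the summed FPKM of 18 immediate early genes. Klf2, Klf4 and Cyr61 are above 0 in both panels beside the immediate early sum, and both Piezo genes are below 0.

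With both of these libraries left out, the calls of LN-LEC against D-LEC and against LN-BEC were the same for each of the 7 genes, with log2 fold changes against D-LEC of -2.18 for Klf2, -2.44 for Klf4, -1.60 for Cyr61 and -1.88 for Ctgf. In D-LEC against LN-BEC the number called rose from 3 to 5, with Klf2 (0.68) and Piezo1 (-0.60, adjusted p = 0.029) added.

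The order of the 7 genes on the length-scaled level also differed between the populations, as the mean FPKM show. In LN-LEC it ran from Klf4 (78.7) and Cyr61 (77.0) through Klf2 (54.8), Ctgf (9.90), Nos3 (6.71) and Piezo2 (2.71) to Piezo1 (1.12), and the libraries of Klf4, Cyr61 and Klf2 overlapped. In LN-BEC the order was Klf4 (222), Klf2 (162), Cyr61 (44.7), Ctgf (31.2), Piezo2 (21.9), Nos3 (5.55) and Piezo1 (1.99), and the libraries of Klf4 and Klf2 and those of Cyr61 and Ctgf overlapped. In D-LEC it was Klf4 (361), Klf2 (205), Cyr61 (201), Piezo2 (75.3), Ctgf (34.3), Nos3 (4.65) and Piezo1 (1.43), and the libraries of Klf2 and Cyr61 overlapped. Piezo2 was below Nos3 in LN-LEC and above it in the other populations.

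For each gene the tested gene whose log2 level ran most like it over the 10 libraries was found, as a description that depth and the 3 populations shape. For Piezo2 it was Syne1 (Pearson r = 0.997), which encodes the nuclear envelope protein nesprin-1. For Klf2 it was the immediate early gene Ier2 (r = 0.993). For Klf4 it was Adora2a (r = 0.993), an adenosine receptor, followed by the immediate early genes Egr1 (r = 0.992) and Btg2 (r = 0.990). For Cyr61 it was Cgnl1 (r = 0.992), a junction protein, for Ctgf the metal transporter Slc39a8 (r = 0.983), for Piezo1 the checkpoint gene Hus1 (r = 0.962) and for Nos3 Slc35b2 (r = 0.951).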

How the data were processed

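The 10 bulk RNA-seq libraries (LN-LEC, 4; LN-BEC, 3; D-LEC, 3) had been amplified with an Ovation kit and sequenced on an Illumina HiSeq instrument. The authors trimmed reads with Fastx-trimmer and aligned them to mm9 with STAR; per the file headers, fragments on exons of each gene symbol were counted with featureCounts 1.4.4, with both ends mapped and without strand. The deposited values are raw counts, and fragments that overlapped several genes or mapped to several places were not counted. A column of exon length, deposited beside the counts, was used for FPKM.

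Groups came from the labels, and library totals ran from 22429940 to 48906070. The test was that of edgeR 4.0.16 (R 4.3.3; TMM, robust quasi-likelihood fit, 1 mean per population, Benjamini-Hochberg adjustment, threshold 0.05) after leaving out 3831 predicted or clone symbols and genes with a mean normalized count under 1 in every population. Normalized counts use DESeq2 1.42.0 size factors. Values are mean ± SD, and SE was derived from the log2 fold change and its F statistic. Ratios of related genes, with 0.5 added to counts, were tested by exact permutation. The code was tested on simulated data. No pair of replicates agreed within the sampling noise of counts, which cannot by itself show that they were prepared separately. Each library was counted as 1 sample.

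The 7 genes and the gene lists were chosen with earlier results of these data known. Named are the 7 genes, for each the genes of highest correlation, direct upstream genes, the marker and immediate early genes given beside a result, and from each list up to 4 genes per comparison with the largest called change and no overlap of libraries. Alternatives were DESeq2, its size factors in edgeR, other filters, a fit without robust, fits of 2 populations, and libraries left out. Lists were counted, not tested.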

Additional observations from a re-analysis of the deposited data

Results flagged for a closer look

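In LN-LEC replicate 4 the Klf4 level lay far from the other libraries of its population, at 10100 normalized counts where the others had 5762 to 6427. Its gap to the nearest library was 0.847 of the whole range, above the critical value of 0.829 for 4 samples. The summed level of the 18 immediate early genes was apart in the same library, at 1345 FPKM against 514 to 649, with a gap of 0.838 of the range. LN-LEC was the only population with enough libraries for this comparison, 30 quantities were examined in it, and chance alone flags about 1 in 20. Without this library the log2 fold change of Klf4 was -2.42 against D-LEC and -1.72 against LN-BEC, and both stayed past the threshold.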

How the results depend on the processing

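No paired analysis was possible because the labels give no replicate numbers and no pairing between populations. Of 378 recomputed log2 fold changes of the 7 genes, 364 kept their direction and their side of the threshold, 8 lost a call, 5 gained one and 1 reversed. The reversal was Ctgf in D-LEC against LN-BEC without D-LEC replicate 3, at -0.24, and its log2 fold change ran from there to 0.31 as single libraries were left out. Cyr61 in LN-LEC against LN-BEC lost its call in 6 settings, and Klf4 in D-LEC against LN-BEC lost it in 2, as given above; the cause was not tested. With both libraries that stood apart left out, 5 genes were called in D-LEC against LN-BEC in place of 3. Leaving out 1 library at a time, the number called of the 7 was 6 to 7 in LN-LEC against D-LEC, 5 to 6 in LN-LEC against LN-BEC and 2 to 4 in D-LEC against LN-BEC, and all genes called ranged from 6221 to 7220, 5063 to 6020 and 6572 to 7376. The adjusted p of the ratios ranged from 0.0024 to 0.0107 for Piezo1/Piezo2, 0.0036 to 0.0321 for Cyr61/Ctgf and 0.0587 to 0.582 for Klf2/Klf4, for which the population with the highest ratio changed without LN-BEC replicate 2 (0.381), LN-BEC replicate 3 (0.344) or LN-LEC replicate 1 (0.275). DESeq2 and its size factors, other filters and the fit without robust moved no call of the 7 genes. Piezo1 rested on the fewest counts, at least 186 per library, and pools of mice, amplified RNA and 3 or 4 libraries per population limit the precision of every value.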
